A study of Mus musculus with 6 samples.

Results

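The 10 genes Fndc5, Rbp4, Fstl1, Ceacam15, Ppl, Gpr82, Fyb2, Cobl, Frzb and Slc32a1 were taken by their symbols from a table of read counts for 54532 mouse genes. They were chosen by their counts in these same libraries, as genes outside the usual immune lists with very large differences between control and DB2313, and no numerical threshold was set. Their values in this contrast are therefore given as a description and without a test. All 10 passed the filter on low counts, as 14883 genes of the table did, but 6 of them passed through the control libraries alone. Mouse spleen CD8T cells, stimulated with beads carrying anti-CD3 and anti-CD28, were kept for 24 hr with macrophages given 10 ng/mL IFN-γ for 12 hr beforehand, and total RNA was sequenced. In the control group (3 samples) the macrophages had no DB2313, and in the DB2313 group (3 samples) they had received 14 nM of this compound, which inhibits Spi1 (PU.1), a transcription factor of myeloid cells. Both groups thus shared bead-activated T cells and, per the methods, thioglycolate-elicited peritoneal macrophages given IFN-γ. The labels call the samples primary T cells and name DC cells as their partners, whereas the methods name macrophages. The protocol text of all samples names DB2313, and the groups follow the treatment label of each sample. Whether the 3 samples of a group came from separate mice or cultures is not given in the sources used here, so p-values measure only the spread between these samples, which may be technical.

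The 10 genes belong to unrelated families. Fndc5 is the membrane precursor of irisin, a peptide best known from muscle, and Rbp4 carries retinol in plasma, mostly from liver and fat. Fstl1 is a secreted follistatin-like glycoprotein, and Frzb is a secreted antagonist that binds Wnt ligands through a frizzled-like domain. Ceacam15 belongs to the carcinoembryonic antigen family, and Gpr82 is an orphan G protein-coupled receptor. Ppl (periplakin) links intermediate filaments to desmosomes in epithelia, Cobl (cordon-bleu) nucleates actin filaments, and Fyb2 is an adaptor related to Fyb, the ADAP protein of T cell adhesion. Because Fyb2 has itself been described in T cells, calling it non-immune is open to question. Slc32a1 loads GABA and glycine into synaptic vesicles of inhibitory neurons.

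Library totals lay between 16611975 and 18596217 counts, so that 3 counts stood for 0.162 to 0.183 CPM (the counts of a gene scaled to a common library size, with TMM factors), and these floors cover counting error only. All 20 T cell markers were higher with DB2313 at an adjusted p below 0.05 in edgeR's quasi-likelihood test, and together took 0.335 to 0.337% of counts in control and 0.540 to 0.542% in DB2313 libraries. All 20 macrophage markers were lower, 11 of them by more than 1 on the log2 scale, and took 1.39 to 1.42% and 0.572 to 0.587%. Of all tested genes, 20.8% were higher and 24.6% lower at that adjusted p, and 5.30% were lower by more than 1. In RNA of a mixed sample, fewer cells of a type and less RNA per cell cannot be told apart. The part that these shifts had in the values of the 10 genes was not tested.

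The upstream sequence of 4 of the genes is shown, for Ceacam15 and Cobl because they hold a motif searched for, and for Fndc5 and Rbp4 because these are the lower and the higher gene with the largest difference among those with over 10 counts in every library. RefSeq promoters of GRCm38.p6 were matched by symbol for 9 of the 10 genes, not for Ppl, and the 250 bases before the first start are given on the strand of the gene. Spi1 belongs to the ETS factors, which bind purine-rich sites around GGAA, and Spi1 itself prefers GAGGAA and the longer GAGGAAGT. Capitals mark GAGGAA or, on the other strand, its complement TTCCTC.
Fndc5, chr4:129136749-129136998, + strand: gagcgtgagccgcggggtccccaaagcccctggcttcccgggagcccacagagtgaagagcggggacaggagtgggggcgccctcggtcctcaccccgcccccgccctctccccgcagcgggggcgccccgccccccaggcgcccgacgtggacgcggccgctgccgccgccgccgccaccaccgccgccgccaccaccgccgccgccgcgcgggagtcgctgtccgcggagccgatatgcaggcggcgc
Cobl, chr11:12464961-12465210, - strand: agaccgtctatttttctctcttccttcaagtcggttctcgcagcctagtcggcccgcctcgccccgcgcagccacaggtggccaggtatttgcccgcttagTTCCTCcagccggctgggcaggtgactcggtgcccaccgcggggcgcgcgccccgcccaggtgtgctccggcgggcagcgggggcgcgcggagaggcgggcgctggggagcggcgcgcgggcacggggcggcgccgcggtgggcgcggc
Rbp4, chr19:38125322-38125571, - strand: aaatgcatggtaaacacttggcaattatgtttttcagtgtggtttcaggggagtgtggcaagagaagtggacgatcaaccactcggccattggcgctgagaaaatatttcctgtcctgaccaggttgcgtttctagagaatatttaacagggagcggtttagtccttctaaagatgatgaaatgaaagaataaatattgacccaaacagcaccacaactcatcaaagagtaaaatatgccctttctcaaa
Ceacam15, chr7:16675706-16675955, - strand: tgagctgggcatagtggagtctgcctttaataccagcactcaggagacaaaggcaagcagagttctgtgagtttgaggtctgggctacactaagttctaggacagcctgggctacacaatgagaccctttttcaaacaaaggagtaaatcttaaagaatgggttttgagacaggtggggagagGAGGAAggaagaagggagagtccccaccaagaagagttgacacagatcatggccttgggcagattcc
The Fndc5 window held 38 CpG dinucleotides and the Cobl window 36, against 5 for Rbp4, 0 for Ceacam15 and a median of 6 over all promoters. A second RefSeq start of Rbp4 had 28 CpGs and a TATAAA box, a motif found on either strand in 12.4% of promoters, and a second start of Cobl had 0 CpGs. In the first windows, the other higher gene, Fstl1, had 16 CpGs. The other lower genes had 3 (Gpr82), 7 (Fyb2), 16 (Frzb) and 12 (Slc32a1). A relation of CpG content to direction was not tested. GAGGAA was found on either strand in Ceacam15, 67 bases before the start, and in Cobl, 149 bases before it, and 23.3% of all 32851 promoters held it. None of the windows of the 9 genes held GAGGAAGT, which 2.44% of promoters held, while GGAA alone, which lies within both longer motifs, was in 93.4% of promoters. These matches describe letters only.

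Among the secreted products, Fndc5 had the largest difference of the well-counted genes. Fndc5 (chromosome 4, 129136999 to 129144593, GRCm38 coordinates as in the table, + strand, 6 exon blocks) had 662, 642 and 579 counts in control libraries and 16, 14 and 13 in DB2313 libraries. The control counts were all high and close to each other, and the DB2313 counts were all low but above the 3-count floor. Fndc5 stood at 36.5 CPM ± 1.01 in control and 0.798 CPM ± 0.0822 in DB2313 (SD, n = 3 each), a fitted log2 fold change of -5.50 (SE 0.14). The ratio of its scaled counts, control over DB2313, was 45.8, with a 95% exact binomial interval of 33.8 to 63.5 for counting error. The control libraries varied by a CV of 2.77%, below the 3.99% that counting alone would give. Groups that did not overlap with control above were seen in 27.5% of all 14883 tested genes, and with DB2313 above in 25.6%, and 53.1% in either direction, and nothing is read from the same pattern in the 10 genes, which were chosen for it. Of 12 markers of muscle, where Fndc5 is best known, Myh1, Myh2, Myh4, Myod1 and Myog had 0 counts in all 6 libraries, and the list took 0.000678 to 0.00167% of counts in control and 0.000930 to 0.00129% in DB2313. None of the 3 that could be tested was called, and Actn2, the most counted, had a log2 fold change of 0.58 (edgeR, adjusted p = 0.00422). Control replicate 3 held 69 counts of Acta1, 39 of Des and 26 of Ckm, above every other library, and these genes are named because of those values. Over the fits that leave out 1 library in turn, Fndc5 stayed between -5.57 and -5.42.

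Rbp4 was higher with DB2313 (chromosome 19, 38116620 to 38125321, - strand, 7 exon blocks). It had 26, 22 and 29 counts in control libraries and 194, 198 and 199 in DB2313 libraries. The DB2313 libraries were nearly level and far above every control library. Rbp4 lay between 1.28 and 1.77 CPM in control libraries and at 11.0 CPM ± 0.567 in DB2313 libraries (SD, n = 3), with a fitted log2 fold change of 2.87 (SE 0.18) and a ratio of 7.34, DB2313 over control (interval 5.78 to 9.44). Of 8 liver markers in the table, 6 had 0 counts in every library, among them Alb, Apoa1 and Ttr, the plasma partner of Rbp4, and the list took at most 6.14e-05% of counts.

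Fstl1 was also higher with DB2313 (chromosome 16, 37776873 to 37836514, + strand, 12 exon blocks). Control libraries held 145, 125 and 130 Fstl1 counts, and DB2313 libraries 781, 653 and 726. No control library came near a DB2313 library. The level of Fstl1 was 7.75 CPM ± 0.416 in control and 40.0 CPM ± 2.06 in DB2313 (SD, n = 3 each), a log2 fold change of 2.37 (SE 0.09) and a ratio of 5.17 (4.64 to 5.76). Fibroblasts, a known source of Fstl1, left few counts: without Thy1, which T cells share, the other 11 stromal markers took 0.000667 to 0.00105% of counts in control and 0.000758 to 0.000902% in DB2313. Of these 11 markers, Col1a1, Col1a2, Pdgfrb and Fbln1 could be tested and none passed both thresholds, with Fbln1 at 0.76 (edgeR, adjusted p = 0.0375).

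Frzb, the Wnt antagonist, was lower with DB2313 (chromosome 2, 80411970 to 80447625, - strand, 6 exon blocks). It had 16, 34 and 28 counts in control libraries and 0, 3 and 3 in DB2313 libraries. All DB2313 values lay at or under the floor, and the lowest control library stood apart from the other two. Frzb averaged 1.53 CPM ± 0.569 in control and 0.113 CPM ± 0.0980 in DB2313 (SD, n = 3 each). The ratio was 13.6 with a wide counting interval of 5.97 to 38.2, and setting all DB2313 libraries at 3 counts would make it 9.06. The fitted log2 fold change of Frzb was -3.69 (SE 0.60).

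Ceacam15, of the carcinoembryonic antigen family, had the smallest difference of the 10 genes (chromosome 7, 16671331 to 16675705, - strand, 3 exon blocks). Control libraries held 142, 170 and 176 counts and DB2313 libraries 638, 590 and 638. The DB2313 values varied by 0.201% after scaling, against 4.01% for counting alone, while the control values varied by 15.6%, against 7.84%. Ceacam15 stood at 9.50 CPM ± 1.48 in control and 34.6 CPM ± 0.0696 in DB2313 (SD, n = 3 each), with a log2 fold change of 1.87 (SE 0.10) and a ratio of 3.66 (3.31 to 4.05). Reads of similar Ceacam genes may have been divided differently by the authors' counting, so the level of Ceacam15 is uncertain to that extent.

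Gpr82, the orphan receptor, was at or near 0 with DB2313 (chromosome X, 13661363 to 13667433, + strand, 4 exon blocks). It had 46, 29 and 24 counts in control libraries and 2, 0 and 0 in DB2313 libraries. Only the first DB2313 library held any read of it. Gpr82 stood at 1.90 CPM ± 0.572 in control and 0.0361 CPM ± 0.0625 in DB2313 (SD, n = 3 each), with a ratio of 51.7 (13.9 to 433), and 3 counts in every DB2313 library would make it 11.5. Its fitted log2 fold change was -5.44 and became -8.06 without DB2313 replicate 1, since a gene near 0 has a fitted change that depends on the prior count. The gene lies wholly within the span of Cask, on the other strand and without shared exon bases, and Cask had 229, 261 and 190 counts in control against 159, 162 and 214 in DB2313. Whether the counting used the strand is not given in the sources used here, so reads of the introns of Cask and reads of Gpr82 cannot be told apart.

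Among the cytoskeletal and adaptor proteins, Ppl was at or near 0 with DB2313 (chromosome 16, 5086291 to 5132421, - strand, 22 exon blocks). Ppl counts were 26, 51 and 30 in control libraries and 0, 0 and 1 in DB2313 libraries. The second control library held the most reads, and a single read was found over all DB2313 libraries. The level of Ppl was 2.08 CPM ± 0.793 in control and 0.0181 CPM ± 0.0314 in DB2313 (SD, n = 3 each). Scaled counts gave a ratio of 112 with an interval of 19.6 to 4458, and 3 counts in every DB2313 library would give 12.4. The fitted log2 fold change of Ppl went from -6.35 to -8.18 without DB2313 replicate 3, the library with that read. Epithelial and mesothelial markers, of tissues where Ppl is abundant, were few apart from Cdh1 and Epcam: Krt5, Krt14, Msln and Upk3b had 0 counts in all libraries and Krt8 had 4 in all. The 13 markers took 0.00401 to 0.00412% of counts in control and 0.00301 to 0.00357% in DB2313, most of them from Cdh1, which was lower by 0.62 on the log2 scale (edgeR, adjusted p = 3.08e-07). Epcam, the other one tested, had a log2 fold change of 0.43 (edgeR, adjusted p = 0.0514).

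Cobl, the actin nucleator, had 31, 34 and 24 counts in control libraries and 0, 2 and 0 in DB2313 libraries (chromosome 11, 12236608 to 12464960, - strand, 18 exon blocks). The control libraries were close to each other, and DB2313 replicate 2 was the only DB2313 library with a read. Cobl averaged 1.72 CPM ± 0.256 in control and 0.0391 CPM ± 0.0677 in DB2313 (SD, n = 3 each), with a ratio of 46.5 (12.5 to 390), and 3 counts in every DB2313 library would make it 10.3. Its log2 fold change was -5.29 (SE 0.66) and -7.94 without DB2313 replicate 2.

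Fyb2 had 36, 30 and 28 counts in control libraries and 2, 3 and 1 in DB2313 libraries (chromosome 4, 104913456 to 105016863, + strand, 20 exon blocks). Every DB2313 library held at least 1 read and none held more than 3. Fyb2 stood at 1.82 CPM ± 0.155 in control and 0.113 CPM ± 0.0609 in DB2313 (SD, n = 3 each), with a log2 fold change of -3.95 (SE 0.50) and a ratio of 16.4 (7.25 to 45.8), or 10.9 with 3 counts in every DB2313 library. Its control CV of 8.54% was below the 17.9% of counting alone.

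Slc32a1, the vesicular transporter, had 15, 18 and 36 counts in control libraries and 2, 2 and 1 in DB2313 libraries (chromosome 2, 158610767 to 158615748, + strand, 2 exon blocks). The third control library stood above the others, and every DB2313 library held 1 or 2 reads. Slc32a1 averaged 1.36 CPM ± 0.735 in control and 0.0933 CPM ± 0.0340 in DB2313 (SD, n = 3 each), with a log2 fold change of -3.76 (SE 0.61) and a ratio of 14.4 (5.89 to 45.8), or 8.01 with 3 counts in every DB2313 library. Without control replicate 3 its log2 fold change was -3.24. Its control CV of 54.1%, the highest of the 10, compared with 20.9% for counting alone. An antisense gene, Gm14205, shares 697 exon bases with Slc32a1 and had 0 counts in all libraries. Of 10 neuron markers, Snap25 and Nefl had 0 counts in all libraries, and both tested ones were called higher, Tubb3 at 1.15 and Gad1 at 1.13 on the log2 scale. The list took 0.000457 to 0.000583% of counts in control and 0.000975 to 0.00118% in DB2313, and its part in the values of Slc32a1 was not tested.

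**Figure D1:**
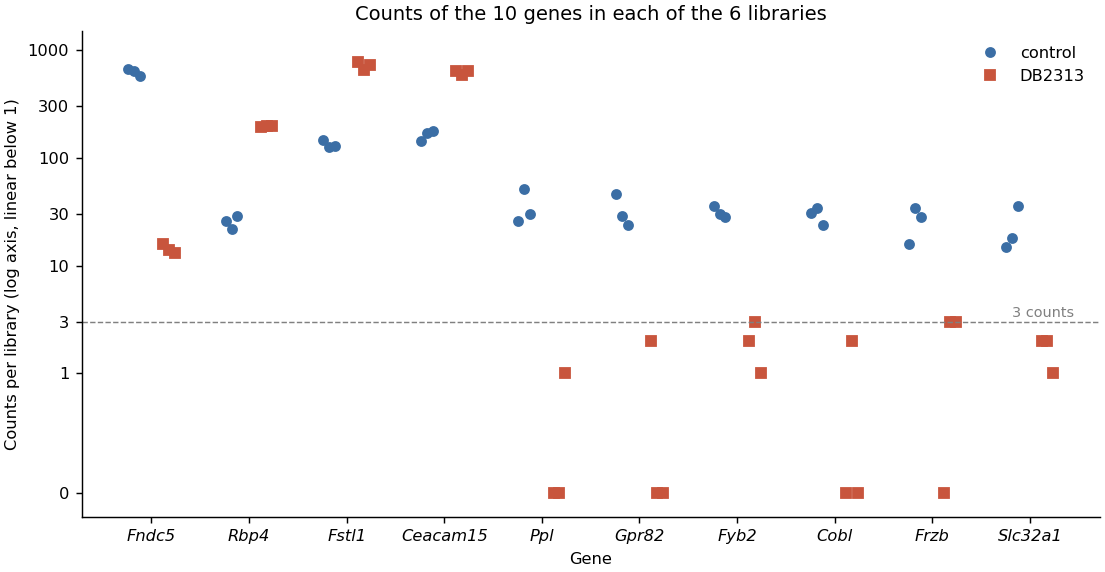
Read counts of the 10 genes in each of the 6 libraries on a log axis that is linear below 1, with control libraries as blue circles, DB2313 libraries as red squares and 3 counts as the dashed line. The 7 lower genes separate downward, 6 of them to 3 counts or fewer in every DB2313 library, and Rbp4, Fstl1 and Ceacam15 separate upward.

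Per kilobase of gene length, the only scale on which genes are compared, Fndc5 was the highest of the 10 in control libraries at 13.2 CPM per kb ± 0.366, followed by Ceacam15 at 6.83 ± 1.06 (SD, n = 3 each). Fstl1 came next at 1.58 CPM per kb ± 0.0846, and then Rbp4 at 1.15 ± 0.193 (SD, n = 3 each). Below Rbp4 the levels were 0.761 CPM per kb ± 0.229 for Gpr82, 0.579 ± 0.0495 for Fyb2, 0.486 ± 0.263 for Slc32a1, 0.471 ± 0.176 for Frzb, 0.302 ± 0.115 for Ppl and 0.211 ± 0.0315 for Cobl (SD, n = 3 each). From Rbp4 downward, the step from each gene to the next was smaller than the SDs of both genes added, so those neighbours in the order did not differ beyond their spread, while the steps above Rbp4 were larger. In DB2313 libraries the order of levels changed to Ceacam15 at 24.9 CPM per kb, Rbp4 at 8.46 ± 0.437 and Fstl1 at 8.14 ± 0.419, the last pair within their spread, with Fndc5 at 0.289 and the other 6 genes at 0.036 or below. Among all tested genes, Fndc5 moved from percentile 70.6 of the level per kb to percentile 6.50, and Rbp4 from percentile 20.6 to 60.6.

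By the size of the fitted log2 fold change among all 14883 tested genes, Ppl ranked 4, Fndc5 6, Gpr82 7, Cobl 10, Fyb2 20, Slc32a1 26 and Frzb 29, while Rbp4 ranked 71, Fstl1 131 and Ceacam15 245. The order of Ppl, Gpr82 and Cobl rests on 1 or 2 reads in a single DB2313 library, without which they were at -8.18, -8.06 and -7.94. Among the genes that were higher with DB2313, Rbp4 was at rank 5, Fstl1 at 17 and Ceacam15 at 31. A log2 fold change of at least 4 in size was reached by 18 tested genes, 16 of them lower. The pattern of the 6 low genes, at least 15 counts in every control library and at most 3 in every DB2313 library, was met by 9 genes, the others being Retnla, Clec4a4 and the rRNA gene Gm25961. Summed control counts of those 6 genes ranged from 69 to 107, a range that held 804 tested genes in all. Of these 804, 7 had at most 3 counts in every DB2313 library. The 7 include the 6 genes themselves, which were chosen for their counts and set the range. The reverse pattern was met by 1 gene, Mmp10, a matrix metalloproteinase with 0 counts in each control library and 25, 33 and 30 in DB2313 libraries. Clec4a4, Gm25961 and Mmp10 are named because of these values.

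**Figure D2:**
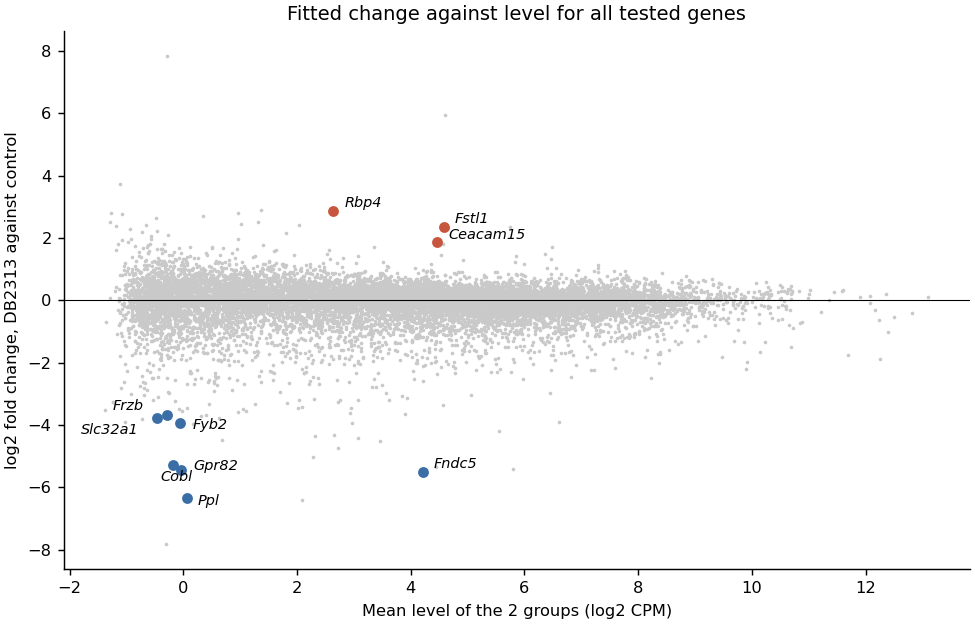
Fitted log2 fold change (DB2313 minus control) against mean log2 CPM for all 14883 tested genes, with the lower of the 10 genes in blue and the higher ones in red. Ppl, Gpr82, Cobl, Fyb2, Frzb and Slc32a1 lie at the low-level edge below, Fndc5 lies at -5.50 at a higher level, and Rbp4, Fstl1 and Ceacam15 lie above 1.

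The genes whose pattern over the 6 libraries was most like each of the 10 were taken by the smallest root mean square distance of centred log2 CPM, which the shared split into control and DB2313 largely sets. Nearest to Fndc5 were Gm5483 at 0.17 and the mast cell tryptase Tpsb2 at 0.21, with Tpsb2 at 1850, 1946 and 1797 counts in control and 52, 55 and 31 in DB2313. Nearest to Rbp4 were the transcription factor Foxf2 at 0.20 and the metalloproteinase Mmp27 at 0.25, to Fstl1 the sodium channel subunit Scn3b at 0.21 and the cystathionine-cleaving enzyme Cth at 0.23, and to Ceacam15 the collagenase Mmp13 at 0.15 and Cox4i2 at 0.16. Mmp13 had 750, 736 and 685 counts in control and 2596, 2349 and 2465 in DB2313. For the genes at or under 3 counts with DB2313, Retnla (0.34) and Gbp2b (0.36) were nearest to Ppl, Dmpk (0.30) and Emp2 (0.40) to Gpr82, and the nitric oxide synthase gene Nos2 (0.22) and the tryptase Tpsg1 (0.26) to Cobl. Kcp and the macrophage receptor Adgre4, both at 0.13, were nearest to Fyb2, the receptor Gpr84 (0.38) and A4galt (0.39) to Frzb, and Ppp1r14a (0.30) and the growth factor receptor Egfr (0.33) to Slc32a1.

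The genes next to the 10 on the chromosomes were examined, since the choice of the 10 had not used them. Of the 100 nearest tested genes, 5 on each side of each, 7 passed an adjusted p below 0.05 and a log2 fold change beyond 1 in edgeR's quasi-likelihood test, 2 higher and 5 lower, that is 7% against 6.67% of all tested genes (1.37% higher and 5.30% lower). Their median log2 fold change was 0.05, against 0.02 over all tested genes. Next to Fndc5, S100pbp had a log2 fold change of 0.06 at 3.41 kb and Rnf19b one of -0.56 at 51.1 kb, and none of its 10 neighbours was called. Next to Ppl, the Ubn1 gene ends 2 bases from the end of Ppl, on the opposite strand, and had 2526, 2511 and 2167 counts in control and 2657, 2333 and 2704 in DB2313, a log2 fold change of 0.03. Fstl1, Fyb2 and Frzb had 0 called neighbours among their 10 as well.

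Called neighbours of Rbp4, Ceacam15, Gpr82 and Cobl are given here. Ffar4, a fatty acid receptor 2.36 kb from Rbp4, fell from 3.58 CPM to 1.13 CPM, a log2 fold change of -1.66 (edgeR, adjusted p = 2.09e-05), opposite in direction to Rbp4, and Myof, 73.0 kb away, fell by 1.75 on the log2 scale (edgeR, adjusted p = 1.14e-18). Ceacam-ps1, a Ceacam pseudogene 13.9 kb from Ceacam15, had 30, 32 and 31 counts in control and 57, 64 and 83 in DB2313, and rose by 1.07 (edgeR, adjusted p = 8.04e-04). Beside Gpr82, the monoamine oxidase gene Maob had a log2 fold change of 1.14 (edgeR, adjusted p = 0.0229) with overlapping groups and Chst7 fell by 1.56 (edgeR, adjusted p = 2.57e-06), at 3042 and 6392 kb. The call of Maob was lost with DESeq2 and without any of 4 libraries (control replicates 2 and 3, DB2313 replicates 1 and 3), with adjusted p-values of 0.0587 to 0.119, and that of Ceacam-ps1 without DB2313 replicate 3, at 0.92. With T cell marker scaling, which sets the libraries to the same summed T cell marker count, Maob was at 0.55 and Ceacam-ps1 at 0.47, and neither was called. Gpr34, 20.5 kb from Gpr82 and a P2Y-like receptor, had a log2 fold change of -0.50. Egfr, 4287 kb from Cobl, fell by 3.47 (edgeR, adjusted p = 1.31e-06), with 36, 25 and 38 counts in control and 4, 3 and 2 in DB2313, near the floor. The nearest neighbours of Slc32a1, Ralgapb and Actr5, had log2 fold changes of -0.07 and 0.23.

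**Figure D3:**
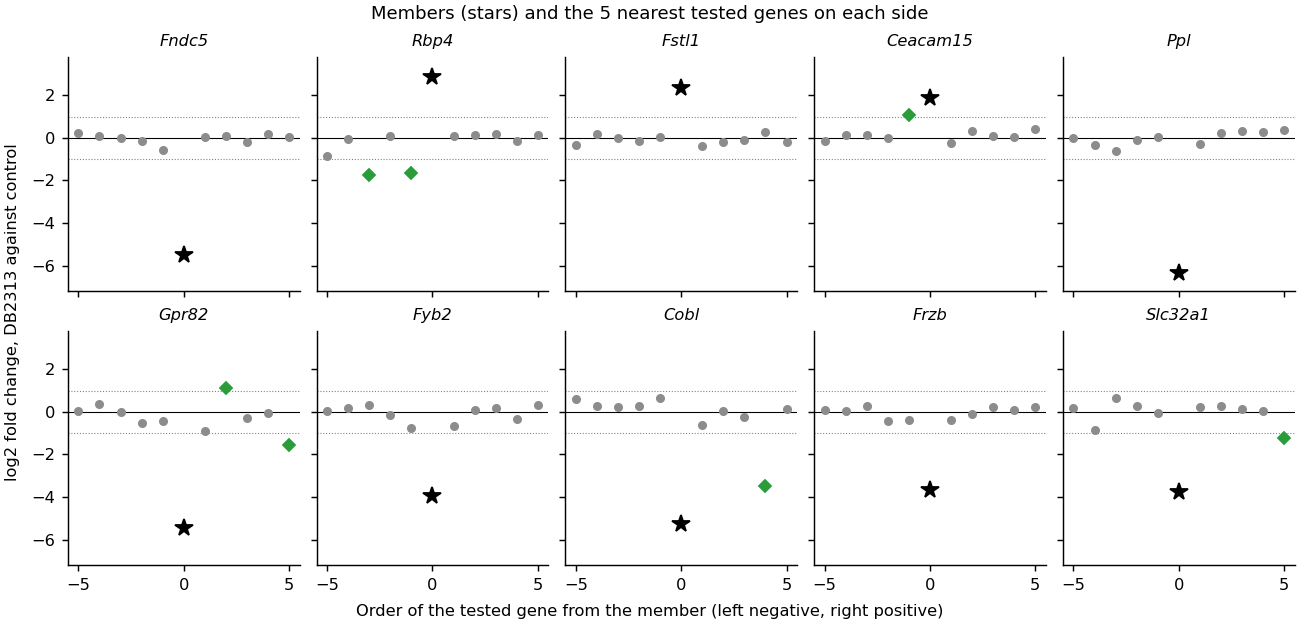
Log2 fold changes (DB2313 minus control) of each of the 10 genes (stars) and of its 10 nearest tested genes in chromosomal order, with called neighbours as green diamonds and dotted lines at 1 and -1. The neighbours lie mostly within 1 of 0, with Egfr beside Cobl at -3.47 as the farthest.

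Genes of the same pathways were then counted, in lists that leave the 10 out. Of 342 listed genes 204 were tested, and 26 passed both thresholds, 5 higher and 21 lower, that is 12.7% against 6.67% of all tested genes, with a median log2 fold change of -0.12 against 0.02. The 204 genes were listed with earlier results of these data known, and the share is a description. In the counts for each list, called genes are those past both thresholds, and the adjusted p alone was passed by 129 of the 204. Of all tested genes, the adjusted p alone put 20.8% higher and 24.6% lower. The medians given next for the retinoid, ADAP and GABA lists are above 0 with library size or upper quartile scaling, and that of the Wnt list is below 0 with T cell marker scaling, which shifts the median of all genes to -0.57.

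For the secreted genes, none of 11 tested relatives of Fndc5 with fibronectin type III domains was called (median -0.31), Fndc3a having 87.5 CPM in control and 64.4 CPM in DB2313. Around Rbp4, 3 of 16 tested retinoid genes fell (median -0.03). Aldh1a2, which makes retinoic acid, fell from 154 CPM ± 2.85 to 19.7 CPM ± 0.768 (SD, n = 3 each, edgeR adjusted p = 2.40e-22). Rarres1, with 16, 12 and 15 counts in control and 2, 4 and 1 in DB2313, fell by 2.62 (edgeR, adjusted p = 7.13e-04). Without DB2313 replicate 2 the fall of Rarres1 was 3.25. Bco2 fell by 1.19 (edgeR, adjusted p = 0.00624). Around Fstl1, 1 of 26 genes of follistatin, activin and BMP signalling rose, the activin subunit Inhbb by 1.58 (edgeR, adjusted p = 0.0150), and 2 fell, Dip2c by 1.33 and the BMP inhibitor Smad6 by 1.08 (median -0.18). Inhbb was not called by DESeq2 (adjusted p = 0.0636), with T cell marker scaling or without control replicate 3 or DB2313 replicate 1 (edgeR, adjusted p = 0.0903 and 0.0611), and Smad6 was at -0.98 and not called with library size scaling. Around Frzb, 1 of 35 Wnt genes rose and 2 fell (median 0.08): Wnt5b, a ligand, rose by 1.22 (edgeR, adjusted p = 0.0312), and the receptor Fzd1 and the transcription factor Tcf7l2 fell by 2.56 and 1.33. Wnt5b was not called by DESeq2 (adjusted p = 0.101), with T cell marker scaling, with the replicate block (edgeR, adjusted p = 0.0503) or without control replicate 1 or 2 or DB2313 replicate 1 or 2 (edgeR, adjusted p from 0.0597 to 0.251). Sfrp1, the relative of Frzb, had too few counts to be tested.

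Both tested Ceacam genes were lower, opposite to Ceacam15. Ceacam10 had a log2 fold change of -1.84 (edgeR, adjusted p = 6.52e-07) and Ceacam1 one of -0.97, short of the fold threshold, with 23.8 CPM in control and 12.1 CPM in DB2313. Around Gpr82, 8 of 22 P2Y-like and orphan receptors fell past both thresholds and 0 were higher past them (median -0.48). The adjusted p alone put 4 higher and 16 lower, against 20.8% and 24.6% of all tested genes. P2ry14, a receptor for UDP-sugars, fell from 79.1 CPM ± 1.42 to 38.8 CPM ± 0.223, P2ry13, an ADP receptor, from 33.5 CPM ± 2.73 to 9.58 CPM ± 1.34, and P2ry6, a UDP receptor, from 46.7 CPM ± 0.123 to 23.3 CPM ± 0.858 (SD, n = 3 each, edgeR adjusted p = 1.14e-13, 4.25e-13 and 1.09e-11). P2ry6 and P2ry14 stood at -0.91 and -0.93, and lost their call, with library size scaling, and both lost it with upper quartile scaling (-0.94 and -0.96), while P2ry6 also lost it without control replicate 3 and, at -0.97, without DB2313 replicate 1.

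For the cytoskeletal and adaptor genes, 1 of 11 plakin and desmosome genes around Ppl rose, the desmoglein Dsg2 by 1.71 (edgeR, adjusted p = 0.00442), and 2 fell, plakoglobin (Jup) by 1.26 and plakophilin Pkp2 by 1.43 (median -0.30). Evpl, the envoplakin partner of Ppl, had a log2 fold change of 0.33 (edgeR, adjusted p = 0.597). Around Cobl, 1 of 40 actin nucleation genes fell past both thresholds, the formin Fmnl2 by 1.21, and 0 were higher past them (median -0.18). The adjusted p alone put 3 higher and 25 lower, against 20.8% and 24.6% of all tested genes. Cobll1, the relative of Cobl, had a log2 fold change of 0.01. Around Fyb2, 1 of 24 genes of the ADAP and SKAP adhesion module fell past both thresholds, Enah by 1.51, and 0 were higher past them (median -0.00), while the adjusted p alone put 9 higher and 6 lower, with Fyb itself at 223 CPM in control and 236 CPM in DB2313. Around Slc32a1, 1 of 17 GABA and vesicular transport genes rose and 1 fell (median -0.06): Gad1, which makes GABA, rose from 1.90 CPM ± 0.685 to 4.14 CPM ± 0.381 (SD, n = 3 each, edgeR adjusted p = 6.22e-04), and Slc18a1, a monoamine transporter, fell by 1.30 (edgeR, adjusted p = 0.0103). Gad1 was at 0.97 without control replicate 1 and at 0.54 with T cell marker scaling, and Slc18a1 had an adjusted p of 0.0597 and 0.0558 in edgeR without DB2313 replicate 1 and without DB2313 replicate 2, so these calls were lost there.

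**Figure D4:**
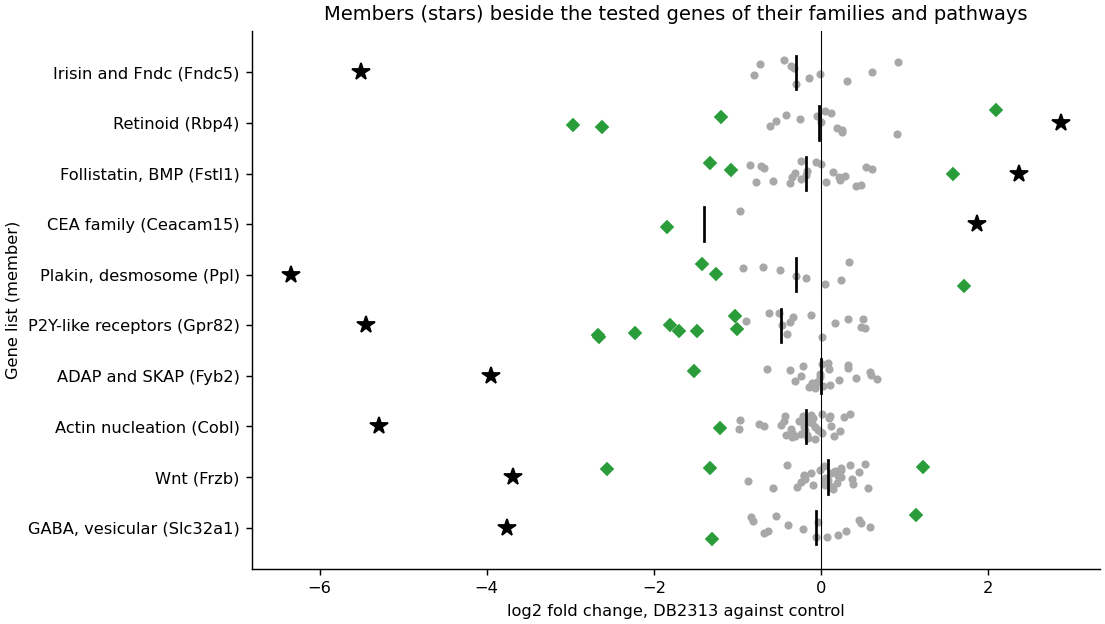
Log2 fold changes (DB2313 minus control) of the tested genes in the pathway list of each of the 10 genes, with the gene itself as a star, called genes as green diamonds and the median of each list as a vertical bar. The P2Y-like receptors around Gpr82 hold 8 of the 26 called genes, and the lists of Fndc5, Cobl and Fyb2 hold 0, 1 and 1.

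The other cell type lists moved with the contrast as follows, where genes counted as lower or higher passed both thresholds. Of all tested genes, 5.30% were lower and 1.37% higher past them. Neutrophil markers had 7 of 10 tested genes lower and 1 higher, with 0.160 to 0.161% of counts in control and 0.0605 to 0.0632% in DB2313. Mast cell and basophil markers had 3 of 9 tested genes lower, with Cpa3 at 460 CPM in control and 186 CPM in DB2313 and 0.100 to 0.102% of counts against 0.0755 to 0.0785%. This list was split, with a median log2 fold change of -0.02. By the adjusted p alone, 3 of its tested genes were higher and 4 lower, against 20.8% and 24.6% of all tested genes. Dendritic cell markers had 2 of 12 tested genes lower and 1 higher (0.403 to 0.408% against 0.308 to 0.309%), and eosinophil markers 2 of 7 lower (0.00987 to 0.0103% against 0.00666 to 0.00745%). B cell markers had 1 of 8 higher (0.00479 to 0.00514% against 0.00748 to 0.00774%), and endothelial markers 1 of 5 higher, Cdh5 (0.0158 to 0.0162% against 0.0167 to 0.0173%). Their part in the values of Fndc5, Rbp4 and the other 8 genes was not tested.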

How the data were processed

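Total RNA of 6 samples was sequenced on Illumina libraries. The authors deposited raw read counts per gene, without normalization. The methods name LifeScope for alignment and counting, whereas the submitters' processing notes name CASAVA 1.8, HISAT2 2.0.5 and featureCounts 1.5.0-p3, with no roles given. The genome build and the use of strand are not given in the sources used here. Of 54409 genes shared with GENCODE M21, 53499 (98.3%) had its GRCm38 coordinates.

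From the counts, genes passing filterByExpr were fitted in R 4.3.3 with edgeR 4.0.16 (TMM, glmQLFit, glmQLFTest, Benjamini-Hochberg over 14883 genes) and called at an adjusted p below 0.05 and a log2 fold change above 1 or below -1. CPM values used TMM-scaled library sizes. Ratios compare scaled summed counts, with exact binomial intervals at 95%. Scripts were tested on simulated data.

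The 10 genes, the gene lists and the tests were chosen with earlier results of these data known. All 10 genes were named, with the 2 most alike protein-coding genes for each, the nearest tested gene on each side and any called one among the 5 on each side, overlapping genes, up to 4 called genes per list by mean CPM, and close paralogs, except that some of these are not reported here. Alternatives were DESeq2 1.42.0, other scalings, filters and thresholds, a replicate block, and leaving out each sample.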

Additional observations from a re-analysis of the deposited data

How the results depend on the processing

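Of 124 values of the 10 genes under the alternatives, 104 moved by less than the replicate spread, 20 moved further and 0 changed direction. With T cell marker scaling, Fndc5 was at -6.09, Rbp4 at 2.28, Fstl1 at 1.77 and Ceacam15 at 1.27, and 51 genes were higher and 2541 lower (against 204 and 789), with 16 neighbours and 59 pathway genes called (against 7 and 26). When 10 counts were required in each sample, 103 genes were higher and 17 pathway genes were called, and the 6 low genes could not be fitted. Of the called genes named above, Maob, Egfr, Rarres1, Inhbb, Dsg2, Wnt5b, Fzd1 and Slc18a1 could not be fitted then either. With the adjusted p alone, 3096 genes were higher and 3667 lower (20.8% and 24.6% of tested genes), with 50 neighbours and 129 pathway genes. DESeq2 called 164 higher and 753 lower genes. Leaving out each sample gave 204 to 223 higher genes, 766 to 828 lower ones, 5 to 7 neighbours and 25 to 27 pathway genes.

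The counts showed no pairing by replicate number, as the deviations of same-numbered samples correlated at 0.0138, -0.00389 and 0.0187. These values cannot tell whether same-numbered samples shared a mouse or culture. With the replicate block, 201 genes were higher and 790 lower, and 7 neighbours and 25 pathway genes were called. Not every sample correlated best with its own number. At these depths the level of a gene at or under 3 counts in each DB2313 library is uncertain and is best read as a bound. Ppl, Gpr82 and Cobl had 0 counts in 2 DB2313 libraries and Frzb in 1, whereas Fyb2 and Slc32a1 had reads in all of them.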
